A study of Homo sapiens with 6 samples.

Results

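Interferon-stimulated and RNA-sensing genes are the antiviral genes that a cell switches on when it meets interferon or foreign RNA, together with the sensors that detect that RNA. A list of 40 such genes was used, and each gene was represented by its brightest probe set among those annotated to that gene alone. Of the 40, 39 were measured (with 97 probe sets in all), out of 18244 genes on the array, and *STAT2* was not analysed here. The cells were SH-SY5Y, an established human neuroblastoma line used as a neuronal model. In 3 samples they had been transfected with an anti-miR against miR-137 and in 3 with Anti-miR Negative Control #1, both at 15 pM with Lipofectamine RNAiMAX 24 hours after seeding, and total RNA was taken 72 hours after transfection. All 6 samples share the lipid transfection and an anti-miR oligonucleotide, and no untransfected cells were among them. The replicates are numbered 1 to 3 in both groups. The labels do not say whether a number marks a culture or a day. In fits with treatment as the only term, the p-values below reflect how far 3 arrays of a group differ. In the tests of replicate number with a treatment term, they reflect how far arrays sharing a number differ beyond the treatment difference. Either spread may be technical. In bulk RNA, fewer cells that express a gene and less of its RNA per cell cannot be told apart.

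In an antiviral response, RIG-I-like receptors and Toll-like receptors bind foreign RNA and signal through adaptors to switch on interferon genes. Secreted interferon binds its receptor, and transcription factors, among them IRF9, then bind interferon-stimulated response elements near their target genes. Among these targets are the ubiquitin-like protein ISG15 and USP18, which removes ISG15 from proteins and, by a separate activity, dampens the interferon receptor. Synthetic RNA delivered with a lipid can set off this response in cells that have the sensors.

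The inhibited microRNA and the response element are shown first. The mature miR-137 strand is given because it is what the anti-miR pairs with. RefSeq places it at chr1:98046091-98046113 (GRCh38.p14, minus strand), and its seed, bases 2 to 8, is in capitals.
hsa-miR-137-3p: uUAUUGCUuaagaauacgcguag
The core of the interferon-stimulated response element was searched as GAAA, any 2 bases and GAAA again, on both strands of the 250 bases before each annotated start. Of 32 listed genes with a RefSeq promoter, 19 (59.4%) held it at 1 or more starts, against 3.71% of all 27305 genes with a promoter. The core of the gamma-activated site, TTC, any 3 bases and GAA, on both strands, was held by 10 of the 32 genes (31.2%), against 8.09% of all genes, and it overlapped a match of the first motif in *BST2*, *IFI27* and *MX1*. A match is a run of letters and not a measured binding site. The whole window of *IFI6* is shown because the gene is among those that changed with replicate number below. It lies at chr1:27672193-27672442 (GRCh38.p14, minus strand), with its 3 matches in capitals.
IFI6: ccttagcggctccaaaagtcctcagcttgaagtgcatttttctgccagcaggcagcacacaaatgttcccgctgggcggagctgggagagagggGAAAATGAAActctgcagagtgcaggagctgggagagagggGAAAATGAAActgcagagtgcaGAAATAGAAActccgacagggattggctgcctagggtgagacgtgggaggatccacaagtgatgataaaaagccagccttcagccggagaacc
For 5 other genes a stretch around 1 match is shown, with the match in capitals. *ISG15* (chr1:1013380-1013409, plus strand), *IFIT1* (chr10:89392510-89392539, plus strand) and *HERC5* (chr4:88457035-88457064, plus strand) were above background in these cells. *RSAD2* (chr2:6877622-6877651, plus strand) and *IFIH1* (chr2:162318686-162318715, minus strand) were not.
ISG15: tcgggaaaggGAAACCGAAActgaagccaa
IFIT1: cactttccccTTTCGGTTTCcctaggtttc
HERC5: aaacattatgTTTCGTTTTCcactggagct
RSAD2: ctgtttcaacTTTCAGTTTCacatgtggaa
IFIH1: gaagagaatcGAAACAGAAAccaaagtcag

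The measured genes were divided between those above the background of the array and those within it. The deposited table holds RMA values, which are log2 signals per probe set, and no detection calls. Background was therefore read from 334 olfactory receptor genes, a family with little expression expected outside the nose, whose brightest probe sets had a median of 4.43 and a 95th percentile of 6.07. Of the 39 measured genes, 22 (56.4%) had a mean over the 6 arrays above that percentile, where 64.7% of all 18244 genes and 5.09% of the olfactory receptor genes did. The median over the 39 genes was 6.21, and it was 7.34 over all genes. Probe sets bind their targets with different strength, so these values rank signals and not transcript numbers. Of the 39 genes, 9 were above the 99th percentile of the olfactory receptors (7.29). That percentile lay below the median over all genes, so most genes on the array exceeded it. The 19 genes that held the response element core had a median value of 6.18, with 10 above background, and the 12 measured genes with a promoter but no match had a median of 6.33, with 7 above background.

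**Figure D1:**
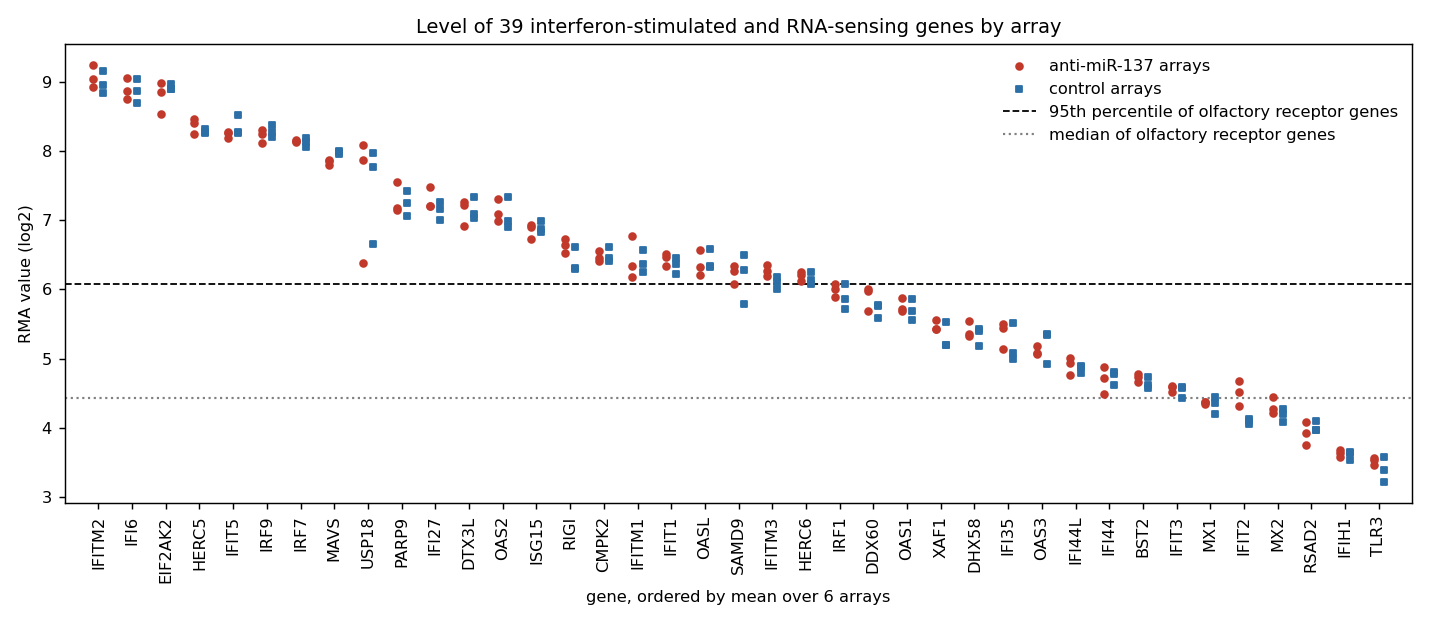
RMA value (log2, vertical axis) of 39 interferon-stimulated and RNA-sensing genes (horizontal axis, ordered by mean) in each of 3 anti-miR-137 arrays (red circles) and 3 control arrays (blue squares), with the 95th percentile (6.07, dashed) and the median (4.43, dotted) of 334 olfactory receptor genes. The 2 groups lie together for most genes, *IFIT2* separates near the background median, and *USP18* is split within each group.

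The RNA sensors differed in whether a signal was seen at all. *EIF2AK2*, the kinase PKR that stops translation on binding double-stranded RNA, had values of 8.85, 8.54 and 8.99 in anti-miR-137 arrays and 8.90, 8.90 and 8.97 in control arrays (replicates 1, 2 and 3). All 6 arrays were above background, and the lowest was anti-miR-137 replicate 2. *MAVS*, the mitochondrial adaptor of the RIG-I-like receptors (mean 7.91), and *RIGI*, the sensor of short RNA with a triphosphate end (6.52), were also above it. *IFIH1*, the sensor MDA5 for long double-stranded RNA (3.62), and *TLR3*, the endosomal sensor of double-stranded RNA (3.46), were below the olfactory receptor median. *DHX58*, which encodes the regulator LGP2 (5.37), lay between the median and the 95th percentile.

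Of the interferon-driven transcription factors, *IRF9* (mean 8.25) and the interferon gene activator *IRF7* (8.14) were above background, and *IRF1* (5.94) was not. In the ISG15 system, *USP18* (7.46), *ISG15* (6.88), the ISG15 ligase *HERC5* (8.33) and its relative *HERC6* (6.17) were all above background by their means. *HERC6* was close to it, with control replicate 3 at 6.071 against 6.075.

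The effector families were split in the same way. Of the IFIT genes, whose proteins bind RNA, *IFIT5* (8.30) and *IFIT1* (6.39) were above background, and *IFIT3* (4.55) and *IFIT2* (4.30) were not. The membrane proteins *IFITM2* (9.03), *IFITM1* (6.41) and *IFITM3* (6.18), which hinder virus entry, were above it, though all 5 of their probe sets but 1 carry the suffix _x_at, which marks possible cross-hybridisation among such close relatives. The oligoadenylate synthetases make the second messenger that activates RNase L. *OAS2* (7.10) and *OASL* (6.39), a relative without that activity, were above background, and *OAS1* (5.73) and *OAS3* (5.16) were not. The value of *OAS2* rests on 1 probe set, as its 4 others had means between 3.50 and 4.24. *IFI6* (8.88) and *IFI27* (7.22) were above background and *IFI35* (5.28), *IFI44L* (4.88) and *IFI44* (4.71) were not.

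The remaining effectors included several of the genes most often used as signs of an interferon response, and those were dim. The dynamin-like GTPases *MX1* (4.35) and *MX2* (4.25), the radical enzyme viperin encoded by *RSAD2* (3.97) and the virion tether *BST2* (4.68) stood at or near the olfactory receptor median. *XAF1*, an antagonist of the apoptosis inhibitor XIAP (5.39), and the helicase-like *DDX60* (5.80) were below the 95th percentile. The partners *PARP9* (7.27) and *DTX3L* (7.14), the nucleotide kinase *CMPK2* (6.48) and *SAMD9*, an inhibitor of viral translation (6.21), were above it. In all, 6 of the 39 genes were below the olfactory receptor median.

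*USP18* was the gene of the list that varied most between arrays, and its low values fell on one replicate number in both groups. Its only probe set measured 8.09, 7.88 and 6.39 in anti-miR-137 arrays and 7.97, 7.76 and 6.65 in control arrays (replicates 1, 2 and 3). Both replicate 3 arrays were low, and each treatment group spans the same range. The standard deviation over the 6 arrays was 0.74, the 4th greatest of 12639 tested genes, where the median gene had 0.10 and no other kept gene of the list exceeded 0.25. Replicate 3 averaged 6.52 and replicate 1 averaged 8.03 (n = 2 arrays each), a log2 difference of -1.51 with a standard error of 0.11 (limma, adjusted p = 0.014 over all tested genes). On the linear scale replicate 1 was 2.85-fold above replicate 3. The difference was -1.70 among anti-miR-137 arrays and -1.32 among control arrays. Replicate 3 was 1.30 log2 units below replicate 2, with an adjusted p of 0.058 in limma, and replicate 2 minus replicate 1 was -0.21 (adjusted p = 0.48, limma). *USP18* was singled out with results of these data known.

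**Figure D2:**
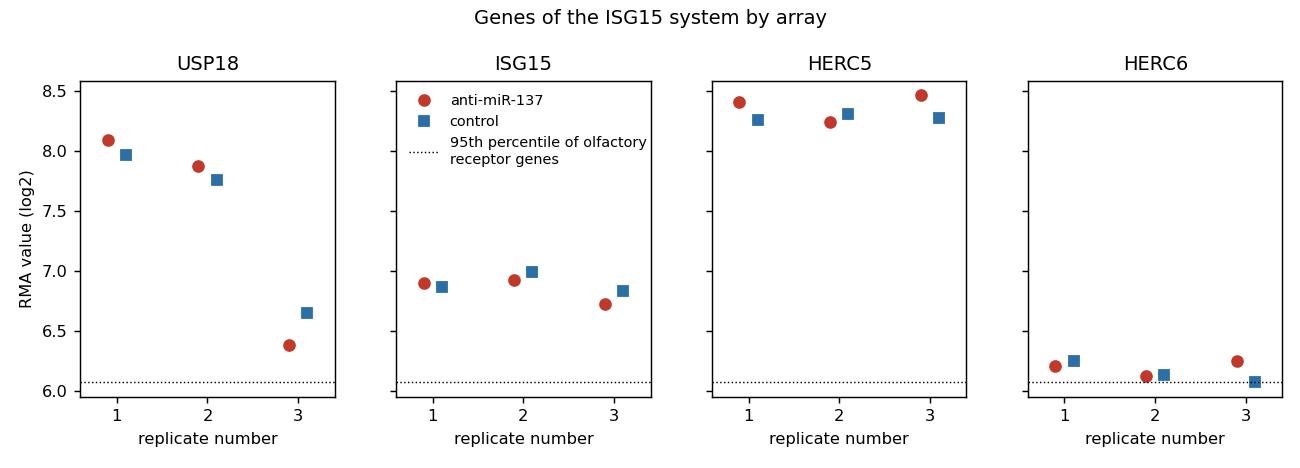
RMA values (log2, vertical axis) of *USP18*, *ISG15*, *HERC5* and *HERC6* by replicate number (horizontal axis) in anti-miR-137 arrays (red circles) and control arrays (blue squares), with the 95th percentile of olfactory receptor genes (6.07) as a dotted line. *USP18* is at 6.39 and 6.65 in the replicate 3 arrays and between 7.76 and 8.09 in the other 4, while the other genes stay within narrow bands.

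No other gene of the ISG15 system in the list passed the test between replicates 3 and 1. *ISG15* measured 6.90, 6.93 and 6.73 in anti-miR-137 arrays and 6.87, 6.99 and 6.83 in control arrays, and its replicate 3 minus replicate 1 difference was -0.11 with a standard error of 0.065 (limma, adjusted p = 0.34). *HERC5* had 8.41, 8.24 and 8.47 in anti-miR-137 arrays and 8.26, 8.31 and 8.28 in control arrays, with a difference of 0.037 and a 95% confidence interval of -0.17 to 0.24. *HERC6* had 6.21, 6.12 and 6.25 in anti-miR-137 arrays and 6.25, 6.13 and 6.07 in control arrays, with a difference of -0.070. The interval for *ISG15* was -0.27 to 0.055, so that the intervals of these genes and that of *USP18*, -1.78 to -1.24, did not overlap. The probe set of *USP18* carries the suffix _s_at, which marks a match to several transcripts. *USP41P*, the annotated copy of *USP18*, has a probe set of its own, chosen here after its values were seen, with 4.66, 4.31 and 4.21 in anti-miR-137 arrays and 4.51, 4.77 and 4.06 in control arrays, around the olfactory receptor median. Of the 15 protein-coding genes on each side of *USP18* in RefSeq order, 18 were tested, with differences between -0.20 and 0.78. Of the 18, 1 passed, against 8.23% of all tested genes, which was *ESS2*, with a higher value in replicate 3 (0.36, adjusted p = 0.033, limma) and named after its values were seen.

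None of the listed genes passed the test for inhibition of miR-137. Of the 25 genes kept by a filter on dim probe sets (a mean of at least 5.69, which 69.3% of all genes reached), 0 passed an adjusted p of 0.05 in limma, against 0% of 12639 tested genes, and 1 had an unadjusted p under 0.05, where 2.65% of all genes did. The log2 differences, anti-miR-137 minus control, ran from -0.14 to 0.22, and 16 of the 25 were above 0 (64.0%, against 52.0% of all tested genes). Their median was 0.041, beside 0.0033 over all tested genes. This direction is not settled: the median was -0.026 without control replicate 3 (11 of 25 above 0), -0.016 without anti-miR-137 replicate 1 (12 of 25), 0.095 without anti-miR-137 replicate 3 (21 of 25) and -0.022 with the RNA integrity number of each array as a covariate (12 of 25). Over all 39 measured genes without the filter, 27 (69.2%) were above 0, against 56.0% of 18244 genes. For 24 of the 25 genes the 95% confidence interval lay within 0.5 log2 units of 0. The exception was *USP18*, at -0.011 with an interval of -1.18 to 1.16. An exact two-sided permutation test of its 6 values gave p = 1.00, where 3 against 3 arrays allow no p under 0.1. With the replicate number as a block, its interval was -0.23 to 0.21. In that block fit 0 listed genes passed the adjusted p in limma. There 3 of the 25 had an unadjusted p under 0.05, where 815 of 12639 tested genes did.

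**Figure D3:**
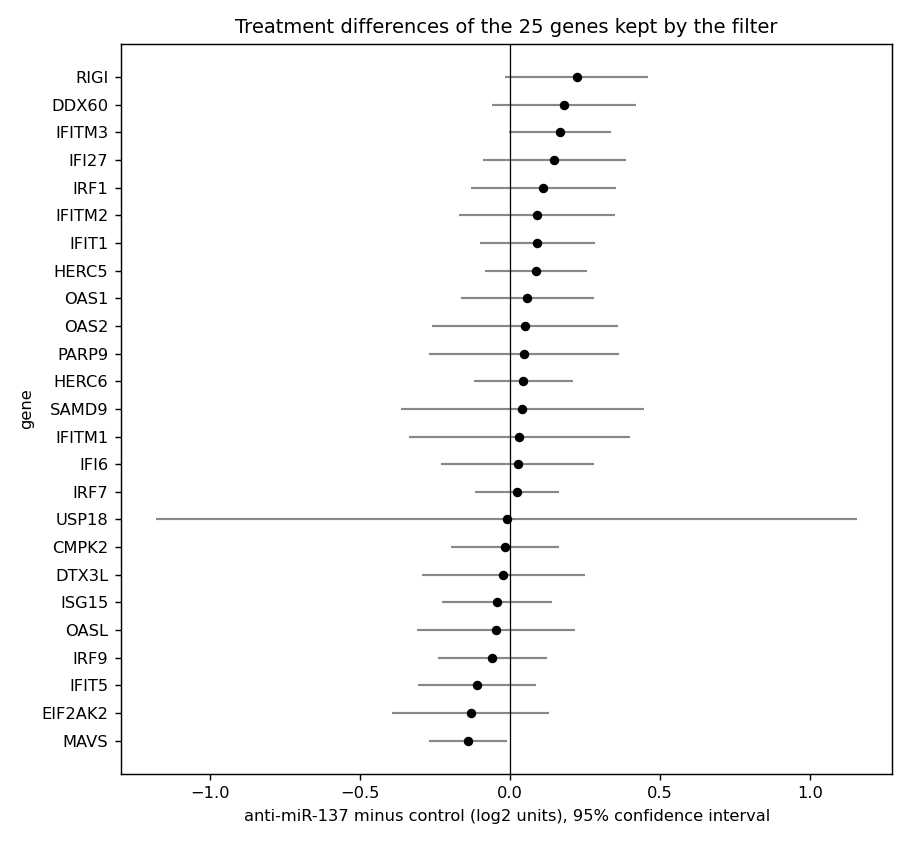
Log2 difference, anti-miR-137 minus control (horizontal axis, points), with 95% confidence intervals (lines) for the 25 listed genes kept by the filter (vertical axis), from a fit with treatment as the only term. All intervals but that of *MAVS* include 0, and the interval of *USP18*, -1.18 to 1.16, is the widest.

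Among the sensors, *MAVS* and *RIGI* had the lowest and the highest difference. *MAVS* measured 7.80, 7.85 and 7.86 in anti-miR-137 arrays and 8.003, 7.98 and 7.95 in control arrays, a difference of -0.14 with a standard error of 0.055 (limma, adjusted p = 1.00). The groups did not overlap on this probe set, but its 6 other probe sets had differences between 0.019 and 0.24, all of the opposite sign. *RIGI* measured 6.53, 6.73 and 6.64 in anti-miR-137 arrays and 6.30, 6.61 and 6.31 in control arrays, a difference of 0.22 with an interval of -0.015 to 0.46. With the number as a block, the interval of *RIGI* was 0.077 to 0.37 (adjusted p = 0.75, limma). The anti-miR-137 array had the higher value within each replicate number, as for 6 of the 25 genes and 15.0% of all tested genes, and its 2 other probe sets gave 0.28 and -0.024.

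Among the effectors, *IFITM3* measured 6.26, 6.35 and 6.19 in anti-miR-137 arrays and 6.18, 6.11 and 6.01 in control arrays, a difference of 0.17 with an interval of -0.0018 to 0.34. The lowest anti-miR-137 array was just above the highest control array. With the replicate number as a block, the interval of *IFITM3* was 0.032 to 0.30 (adjusted p = 0.75, limma). *DDX60*, whose product aids RIG-I signalling, had 6.01, 5.69 and 5.97 in anti-miR-137 arrays and 5.78, 5.77 and 5.58 in control arrays, and the groups overlapped (difference 0.18, interval -0.060 to 0.42). *IFI27*, a small mitochondrial protein, had 7.47, 7.20 and 7.20 in anti-miR-137 arrays and 7.16, 7.26 and 7.01 in control arrays, a difference of 0.15, with the highest value in anti-miR-137 replicate 1 and the others overlapping. *IFIT5* had 8.26, 8.19 and 8.27 in anti-miR-137 arrays and 8.28, 8.26 and 8.52 in control arrays, a difference of -0.11, with control replicate 3 above the other 5 arrays.

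Groups without overlap were found for 2 of the 25 kept genes, *IFITM3* (higher) and *MAVS* (lower), where 7.36% of all tested genes had none (4.19% higher and 3.16% lower). Without the filter they were found for 3 of 39 genes, 2 of them higher, against 8.39% of all genes (5.51% higher). Below the filter, *IFIT2* had 4.67, 4.52 and 4.32 in anti-miR-137 arrays and 4.09, 4.06 and 4.13 in control arrays, a difference of 0.41 (adjusted p = 1.00 in limma without the filter). Every anti-miR-137 array was above every control array, but all 6 values were near the olfactory receptor median of 4.43, and the other probe set of *IFIT2* had a difference of 0.0088. *IFIT2* was named here after its values were seen.

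Between replicates 3 and 1, 4 of the 25 kept genes changed, and *USP18*, *OAS2*, *IFITM2* and *IFI6* all fell (limma, adjusted p threshold 0.05). Of all tested genes, 8.23% passed in either direction and 3.84% passed as lower. The probe sets of *USP18* and *OAS2* end in _s_at and that of *IFITM2* in _x_at. Without such probe sets these genes had no value and could not be called. Of the 16 listed genes left, 1 passed, *IFI6* (adjusted p = 0.042, limma), against 8.30% of all genes then tested. Between replicates 2 and 1, 0 of the 25 passed, against 0.0316% of all tested genes, and between replicates 3 and 2 again 0 passed, against 0.00791%. At an unadjusted p under 0.05 in limma these comparisons held 4 of the 25 genes (1663 of all tested genes) and 7 of the 25 (2023 of all). *OAS2* measured 6.98 and 6.91 in replicate 3 and 7.31 and 7.34 in replicate 1 (anti-miR-137 and control array), a difference of -0.38 with a standard error of 0.065 (limma, adjusted p = 0.029). Its 4 other probe sets, all dim, gave -0.33, -0.15, 0.012 and 0.091, so that 2 of the 4 had the opposite sign. *IFITM2* measured 8.93 and 8.83 in replicate 3, 9.04 and 8.95 in replicate 2 and 9.24 and 9.16 in replicate 1. Its replicate 3 minus replicate 1 difference was -0.32 (adjusted p = 0.033, limma). The other *IFITM2* probe set, which also ends in _x_at, gave -0.35. *IFI6*, an interferon-induced membrane protein that limits apoptosis, measured 8.75 and 8.70 in replicate 3, 8.87 and 8.86 in replicate 2 and 9.05 and 9.03 in replicate 1, a replicate 3 minus replicate 1 difference of -0.32 (adjusted p = 0.036, limma). In these 3 genes the replicate 2 arrays lay between those of the other numbers, with 7.08 and 6.98 for *OAS2*. For *USP18* the replicate 2 arrays, with 7.88 and 7.76, lay close to replicate 1.

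The test over all 3 numbers at once called 1 of the 25 genes, *USP18* (limma F-test, adjusted p = 0.028), against 2.53% of all tested genes, and 6 of the 25 had an unadjusted p under 0.05, against 23.5%. *OAS2* followed with an adjusted p of 0.064, *IFITM2* with 0.077 and *IFI6* with 0.085. These 6 also held *RIGI* and *OAS1* (adjusted p 0.17 and 0.18 in the same limma F-test). *OAS1* had 5.87 and 5.86 in replicate 3, 5.71 and 5.55 in replicate 2 and 5.69 and 5.69 in replicate 1, a replicate 3 minus replicate 1 difference of 0.18, and its 3 other probe sets gave between -0.10 and 0.61. *RIGI* was highest in the replicate 2 array of both groups.

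**Figure D4:**
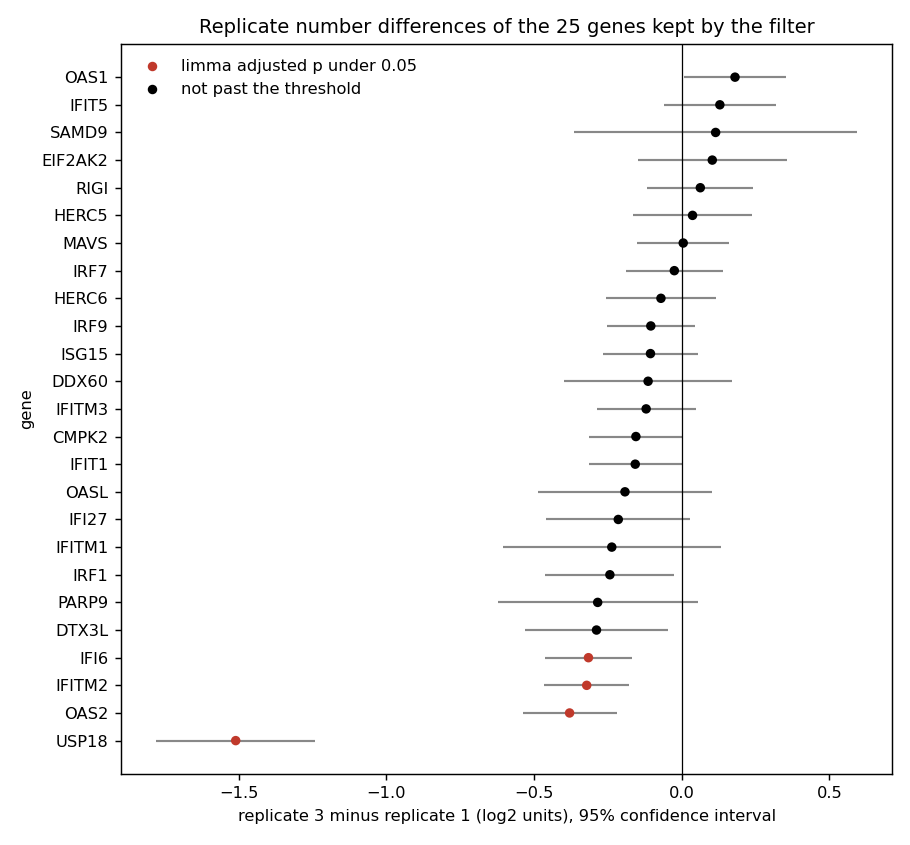
Log2 difference, replicate 3 minus replicate 1 (horizontal axis, points), with 95% confidence intervals (lines) for the 25 listed genes kept by the filter (vertical axis), from a fit with treatment as a term; red points passed an adjusted p of 0.05. *USP18* is at -1.51, and the other 24 genes lie between -0.38 and 0.18.

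Lower values in replicate 3 were more frequent in the list than over all tested genes, with a smaller gap when _x_at and _s_at probe sets were dropped. Of the 25 kept genes, 18 were lower in replicate 3 than in replicate 1 (72.0%, against 53.0% of all tested genes). Without _x_at and _s_at probe sets, 9 of 16 were lower (56.2%, against 51.5% of all genes), with a median difference of -0.048. Both replicate 3 arrays were below both replicate 1 arrays for 13 genes (52.0%), where 31.9% of all tested genes had that order, and the opposite order held for 2, *OAS1* and *EIF2AK2*, against 28.9%. With all probe sets, the median difference was -0.12 over the 25 genes and -0.012 over all tested genes, and it was -0.12 over the 24 genes other than *USP18*. Among all tested genes, 14 (0.111%) differed by 1 log2 unit or more between these numbers, and *USP18* was 4th by size, after *NELL2*, *GRIP1* and *VIP*. Of 7 markers of mesenchymal neuroblastoma cells, 5 were kept and 2 passed between replicates 3 and 1, against 8.23% of all tested genes. *YAP1* (-0.65, adjusted p = 0.021, limma) and *VIM* (-0.40, adjusted p = 0.022, limma) fell in replicate 3. The others had values of -0.36 for *FN1* (adjusted p = 0.068, limma), -0.20 for *COL1A1* (0.12) and 0.38 for *SNAI2* (0.28), and both *CD44* (mean 4.74) and *PRRX1* (5.09) were within background. The mean over the 7 markers was 7.48 and 7.61 in replicate 3, 7.53 and 7.59 in replicate 2 and 7.80 and 7.70 in replicate 1 (anti-miR-137 and control array). Replicate 2 lay near replicate 3 in this mean. The part of these markers in the differences of the listed genes was not tested.

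The call for *USP18* between replicates 3 and 1 needed all 4 arrays of these numbers. Leaving out an anti-miR-137 array gave a log2 difference of -1.41 for replicate 1 (limma, adjusted p = 0.070) and of -1.32 for replicate 3 (0.20). Leaving out a control array gave -1.61 for replicate 1 (0.086) and -1.70 for replicate 3 (0.18), each with 1 array left in a number and assumed to vary like the others. The calls for *OAS2*, *IFITM2* and *IFI6* also ended in each of these 4 settings. They test every gene with fewer arrays, so these losses cannot be read as particular to the listed genes. All 4 calls ended with the RNA integrity number of each array as a covariate too. In that covariate setting the F-test over the 3 numbers called 0 of all 12639 tested genes, where the main fit called 320. The loss of F-test calls there was thus not particular to the listed genes. By the size of its difference, *USP18* ranked 3rd to 5th among all tested genes under every alternative with a value for it. Without the filter on dim probe sets, *USP18* still passed between replicates 3 and 1 (adjusted p = 0.038, limma). There *OAS2*, *IFITM2* and *IFI6* did not (adjusted p 0.077, 0.090 and 0.095, limma). The share of all genes passing that comparison without the filter is not given here. The F-test over the 3 numbers then called 0 listed genes, against 2 of all 18244 genes.

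No gene of the surrounding pathway passed the test for treatment either. Of 18 interferon ligand genes, 15 were measured and 0 were above background, with means between 3.39 and 5.59. Of 17 receptor and JAK-STAT genes, 14 were kept and 0 changed with treatment (limma, adjusted p). The difference was below 0 for 12 of the 14, with a median of -0.018, where 52.0% of all tested genes were above 0. Whether this direction holds with single arrays left out was not tested. *JAK2*, a kinase that carries interferon-gamma signals, had the smallest p there, with 5.94 ± 0.27 on the anti-miR-137 arrays and 6.13 ± 0.13 on the control arrays (SD, n = 3 each). Of 26 sensing adaptors and kinases, 18 were kept and 0 changed, with *IKBKE*, a kinase that activates interferon regulatory factors (0.13), and *TICAM1*, the adaptor of TLR3 (-0.17), leading by p. The 5 measured genes of ISG15 conjugation were all above background, among them its activating enzyme *UBA7* (6.24) and conjugating enzyme *UBE2L6* (10.1), and 0 changed with treatment.

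Other interferon-inducible genes and the antigen presentation genes gave 0 calls for treatment as well. Of 41 inducible genes outside the list, 40 were measured, 18 were above background, 21 were kept and 0 changed (10 higher, 11 lower). Of 17 antigen presentation genes, 12 were kept and 0 passed the adjusted p in limma (10 higher, 2 lower, median 0.028). Of all tested genes 52.0% were higher, with a median of 0.0033, and this direction too was not tested with single arrays left out. *ERAP1*, a peptide-trimming aminopeptidase and the only gene of these interferon pathway lists with an unadjusted p under 0.05 for treatment, measured 6.11 ± 0.097 on the anti-miR-137 arrays and 5.93 ± 0.025 on the control arrays (SD, n = 3 each). Between replicates 3 and 1, 6 of the 68 kept genes of the interferon pathway lists passed (8.82%), close to the 8.23% of all tested genes, and they are named after their values were seen. *SP110*, a nuclear body protein, fell by 0.63 log2 units (adjusted p = 0.015, limma), the dNTP hydrolase *SAMHD1* rose by 0.47 (adjusted p = 0.039, limma), and the kinase *IKBKB* fell by 0.42 (adjusted p = 0.023, limma). The antigen presentation genes *PSMB8* (-0.51, adjusted p = 0.036), *HLA-C* (-0.37, 0.045) and *PSME1* (-0.29, 0.044) fell as well in limma.

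The arrays carried the markers of the stated cell line. All 9 measured markers of noradrenergic neuroblastoma cells were above background, with means between 8.28 for *TH* and 14.5 for *CHGA*. Of 8 measured leukocyte markers, 2 were above it, *CD68* (6.44) and *NKG7* (6.10), while *PTPRC*, the pan-leukocyte marker CD45, was at 3.80. The mean over the 8 leukocyte markers lay between 4.96 and 4.99 in anti-miR-137 arrays and between 4.89 and 5.03 in control arrays. Array medians lay between 6.39 and 6.43, and RNA integrity numbers between 9.5 and 9.8. Precision is limited throughout by having 3 arrays in a group. The inhibition of miR-137 itself was not checked here.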

How the data were processed

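Total RNA (100 ng, labelled with biotin) was measured on 1-colour oligonucleotide arrays. The deposited values are log2 signals per probe set that the authors made with RMA in R 3.0.1, per the submitters' processing notes. RMA makes array distributions alike, which would hide a change common to the whole transcriptome. The annotation build is not given in the sources used here. Of 49495 probe sets, 45278 had 1 gene symbol, 1333 several and 2782 none, besides 102 controls. Probe sets with a 6-array mean under the 40th percentile (5.69) were dropped, and each gene took its brightest one, which left 12639 genes.

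Treatment was tested with limma 3.58.1 in R 4.3.3 (group as the only term, two-sided, Benjamini-Hochberg over all kept genes, threshold 0.05). Replicate number was tested in a fit with treatment as a term, by an F-test and by pairwise differences. Steps were tested on simulated data. Deviations from the group means correlated at 0.55, 0.073 and 0.65 between the arrays numbered 1, 2 and 3, so numbers 1 and 3 shared variation across the groups. The labels state no pairing, and the main treatment fit did not take the numbers as pairs. Differences between numbers thus enter its error. The standard error of *USP18* was 0.50 in that fit and 0.089 with the number as a block. The genes and lists were chosen with earlier results of these data known. Per-array values are given for *USP18*, the 6 genes with the smallest p for treatment and for replicate number, and the 5 brightest; *ISG15*, *HERC6* and *IFIT2* were added after their values were seen; pathway lists give up to 3 genes by p. Promoter and microRNA sequences are from RefSeq (GRCh38.p14).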

Additional observations from a re-analysis of the deposited data

How the results depend on the processing

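For treatment, 0 listed genes passed in limma under any of 16 alternatives, and 0 of all tested genes passed in any of them. At an unadjusted p under 0.05 in limma there were 0 to 3 listed genes. The 3 came with the replicate number as a block, where 815 of 12639 tested genes did. The replicate block (replicate number as a block) left the median at 0.041 and *USP18* at -0.011 (adjusted p = 0.99, limma), and it changed no call. The median treatment difference was -0.022 when RNA integrity was added as a covariate and -0.026 to 0.095 with single arrays left out. The *USP18* treatment difference turned to 0.078 with array weights (adjusted p = 0.98, limma) and ranged from -0.41 to 0.52 with single arrays left out, so its direction is not settled.

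For replicate number, the F-test called 1 listed gene. With no filter it called 0 of 39, against 2 of all 18244 genes. Without _x_at and _s_at probe sets, where *USP18* has no value, it called 0 of 16, against 313 of 10986. With the RNA integrity number as a covariate it called 0 of 25, against 0 of 12639. It called 2 of 25 with array weights (637 of 12639) and 2 of 25 without the treatment term (526 of 12639). A filter at the 60th percentile gave 3 of 11 (1099 of 9398), and a variance prior with trend gave 4 of 25 (1797 of 12639). Over all tested genes the same test called 320 genes, and 0 to 1797 under the alternatives. The *USP18* difference between replicates 3 and 1 was -1.32 with the RNA integrity number as a covariate (adjusted p = 0.15, limma) and -1.70 to -1.32 with single arrays left out. The median over the listed genes was -0.070 with no filter, -0.048 without _x_at and _s_at probe sets, -0.17 with the RNA integrity number and -0.15 to -0.091 with single arrays left out. Above the 99th percentile of the olfactory receptors stood 9 genes in place of 22. The cause of these changes was not tested.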
